A study of Mus musculus with 13 samples.

Results

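The GATA factors are zinc finger transcription factors that bind DNA sites with a GATA core, and the Zfpm proteins (Friends of GATA) are cofactors that attach to their zinc finger and change what they do at a gene. The family listed here had 8 genes: Gata1, Gata2 and Gata3, known from blood; Gata4, Gata5 and Gata6, known from heart and endoderm; and the cofactors Zfpm1 and Zfpm2. Members were chosen by gene symbol in the expression table, without use of their values. A row was found for 7 of the 8 genes among 45250 rows, and Zfpm1 is not analysed here. All 7 passed the filter on low values that left 13802 genes for testing. Gata1, Gata5 and Zfpm2 passed it only through the groups in which they were high, so that a count over the tested members is no support for a difference.

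In early mesoderm GATA2 works with TAL1 and LMO2. LMO2 has no DNA binding of its own and bridges a TAL1 dimer, which binds an E-box, to a GATA factor, with LDB1 holding the complex together. GATA1 takes over from GATA2 at many sites once red cells form, and GATA4 to GATA6 act in the mesoderm that gives the heart and in the endoderm.

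RNAseq was performed on mouse ES cell derived Flk-1+ cells, 3 libraries each of WT, Lmo2-/- and Tal1-/-, and on haemogenic endothelium 1 (HE1), 2 libraries each of WT and Lmo2-/-, 13 in all. Flk-1+ cells (haemangioblasts, the precursors of blood and endothelium) were enriched from embryoid bodies with magnetic beads against Flk-1, and HE1 was the Tie2+, Kit+, CD41- fraction sorted from blast cultures of Flk-1+ cells. The WT line was CCB, and for the genotypes measured here the study names 1 ES cell line each, so that the loss of Lmo2 or Tal1 cannot be told apart from a difference between lines. The p-values measure the spread between these libraries, and in such bulk samples fewer cells of a type and less RNA per cell cannot be told apart.

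The genes of the sorted surface proteins were checked in FPKM (fragments divided by transcript length and library size). Kdr, which codes for Flk-1, was 68.7 to 252 FPKM in Flk-1+ cells and 143 to 275 FPKM in HE1. Tek, the gene of Tie2, was 121 to 176 FPKM in HE1 and at most 2.27 FPKM in Flk-1+ cells, and Kit was 42.4 to 68.5 FPKM in HE1 and at most 10.7 FPKM in Flk-1+ cells. Itga2b, the gene of CD41, against which HE1 was sorted, was 10.4 and 15.4 FPKM in WT HE1 and 0 and 19.8 FPKM in Lmo2-/- HE1, while Flk-1+ cells had at most 5.54 FPKM. The summed FPKM of Cdh5, Pecam1 and Tie1 was 463 to 611 in HE1 and at most 7.58 in Flk-1+ cells. The 5 Flk-1+ mesoderm markers (Kdr, Pdgfra, Mesp1, T and Etv2) summed to 149 to 433 FPKM in Flk-1+ cells and to 212 to 277 FPKM in HE1, so their sum did not separate the stages. Of these, Mesp1 and T were listed at 0 in every HE1 library, whereas Pdgfra was at most 2.98 FPKM in WT HE1 and 37.3 and 94.5 FPKM in Lmo2-/- HE1. The libraries labelled Lmo2-/- HE1 differed from WT HE1 also in fibroblast markers (6 genes, summed FPKM 155 to 666 against 21.8 to 26.6) and in the smooth muscle marker Acta2 (263 and 816 against 114 and 165 FPKM). Of the other smooth muscle markers Tagln overlapped (24.1 and 59.0 against 50.5 and 53.7 FPKM), and Myh11 and Cnn1 were below 1 FPKM in all HE1 libraries. Lmo2 itself was 21.6 to 30.8 FPKM in WT and 2.17 to 6.48 FPKM in Lmo2-/- Flk-1+ cells, but its HE1 values of 4.30 and 20.6 FPKM (labelled WT) and 6.42 and 0 FPKM (labelled Lmo2-/-) overlapped, so the HE1 genotypes rest on the labels. Lmo2-/- HE1 replicate 1 stood apart, with 9694 genes above 0 against 11861 to 15641 in the other 12 libraries, and with 191 of 4079 well expressed genes listed at 0 against at most 59 elsewhere. The median FPKM of genes above 0 in all libraries was 22.8 in this library and 8.36 to 14.4 in the others.

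Gata4 was the dominant member, with the highest FPKM of the 7 genes in 12 of 13 libraries. The exception was Tal1-/- Flk-1+ replicate 1, in which Gata3 was highest. Gata4 and Gata6 were above 10 FPKM in every library, and with Gata3 they were the 3 members that reached 1 FPKM everywhere. Over the 13 libraries the median FPKM of Gata4 was above that of 97.4 percent of all tested genes, that of Gata6 above 83.4 percent, that of Gata3 above 68.9 percent and that of Gata2 above 67.6 percent. Gata1, Gata5 and Zfpm2 were each listed at 0 in at least 1 library and were above 0 in 4, 6 and 9 of 13 libraries. In WT Flk-1+ cells the mean FPKM fell in the order Gata4, Gata2, Gata6, Gata3, Gata1, Zfpm2, Gata5, where Gata2, Gata6 and Gata3 overlapped as neighbours and so did Gata1 and Zfpm2. In Lmo2-/- Flk-1+ cells, Tal1-/- Flk-1+ cells and Lmo2-/- HE1, Gata2 stood in the fourth place and was below Gata3 in every library.

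**Figure D1:**
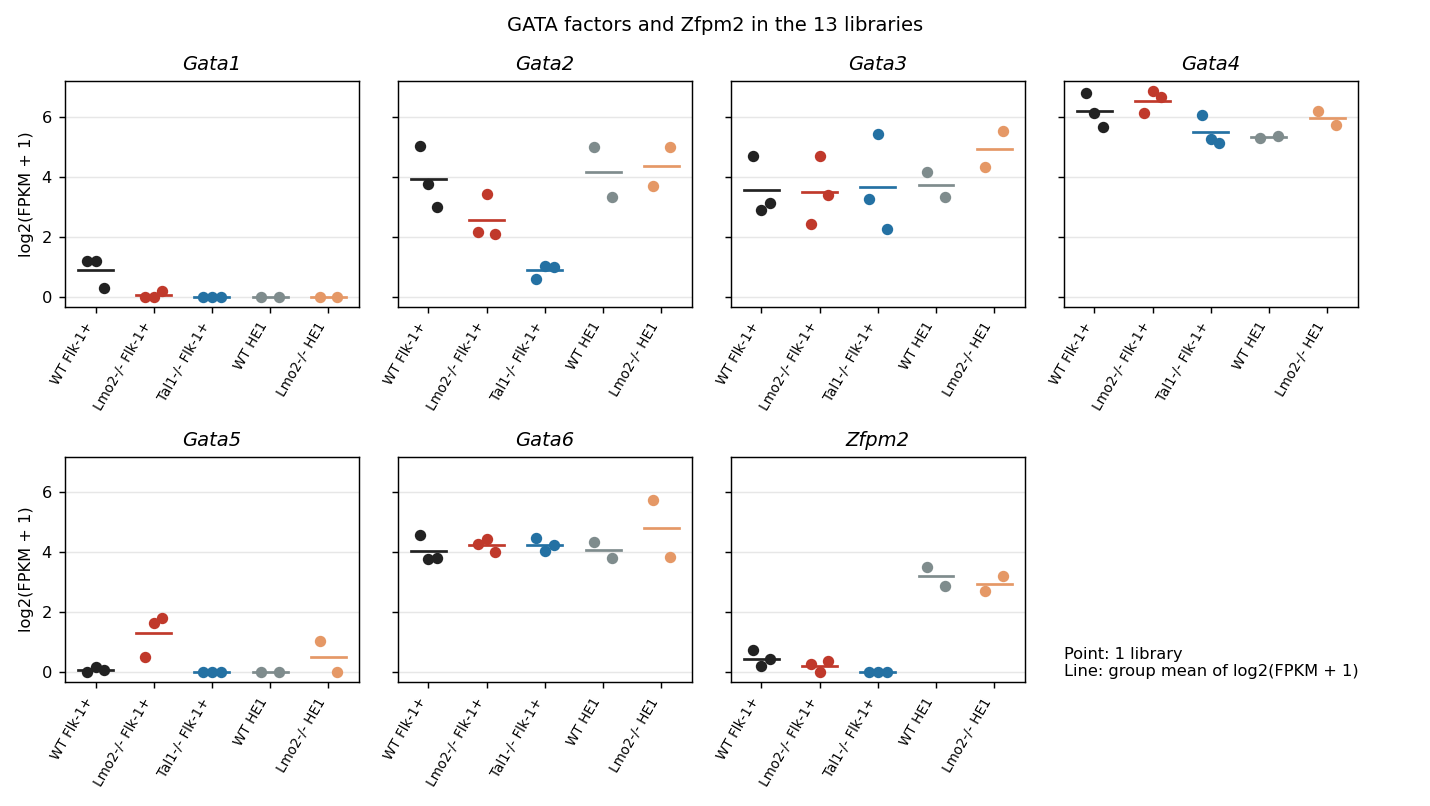
Each panel plots 1 gene, with log2(FPKM + 1) on the vertical axis and the 5 groups on the horizontal axis; points are libraries (3 per Flk-1+ group, 2 per HE1 group) and lines are group means. Gata4 lies highest in every group, Gata2 steps down from WT to Lmo2-/- to Tal1-/- Flk-1+ cells, and Zfpm2 is high in the 4 HE1 libraries.

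Each member was compared between groups in 1 limma fit of log2(FPKM + 1) across all tested genes, with Benjamini-Hochberg adjustment over the 13802 genes. A gene was called where the adjusted p was below 0.05 and either group compared had a mean FPKM above 10. By this rule 0 of 7 members were called in any comparison. The same rule called 0% of tested genes in the comparisons of WT with Lmo2-/- and with Tal1-/- Flk-1+ cells, and 0.0145% in that of Lmo2-/- with Tal1-/- Flk-1+ cells. It called 3.01% in the comparison of the HE1 genotypes, 6.98% in that of WT Flk-1+ cells with WT HE1 (the WT stages) and 19.6% in that of the Lmo2-/- stages. At an unadjusted p below 0.05 in limma the count of members was 3 (Gata1, Gata2, Gata5; all tested genes 2.22%), 2 (Gata1, Gata2; 6.11%), 3 (Gata2, Gata4, Gata5; 5.96%), 0 (20.7%), 2 (Gata1, Zfpm2; 23.9%) and 2 (Gata2, Zfpm2; 38.7%) in these 6 comparisons. The first 2 and the WT stage comparison share the WT Flk-1+ libraries, and the Lmo2-/- Flk-1+ libraries also serve in 3 comparisons and the Tal1-/- libraries in 2.

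**Figure D2:**
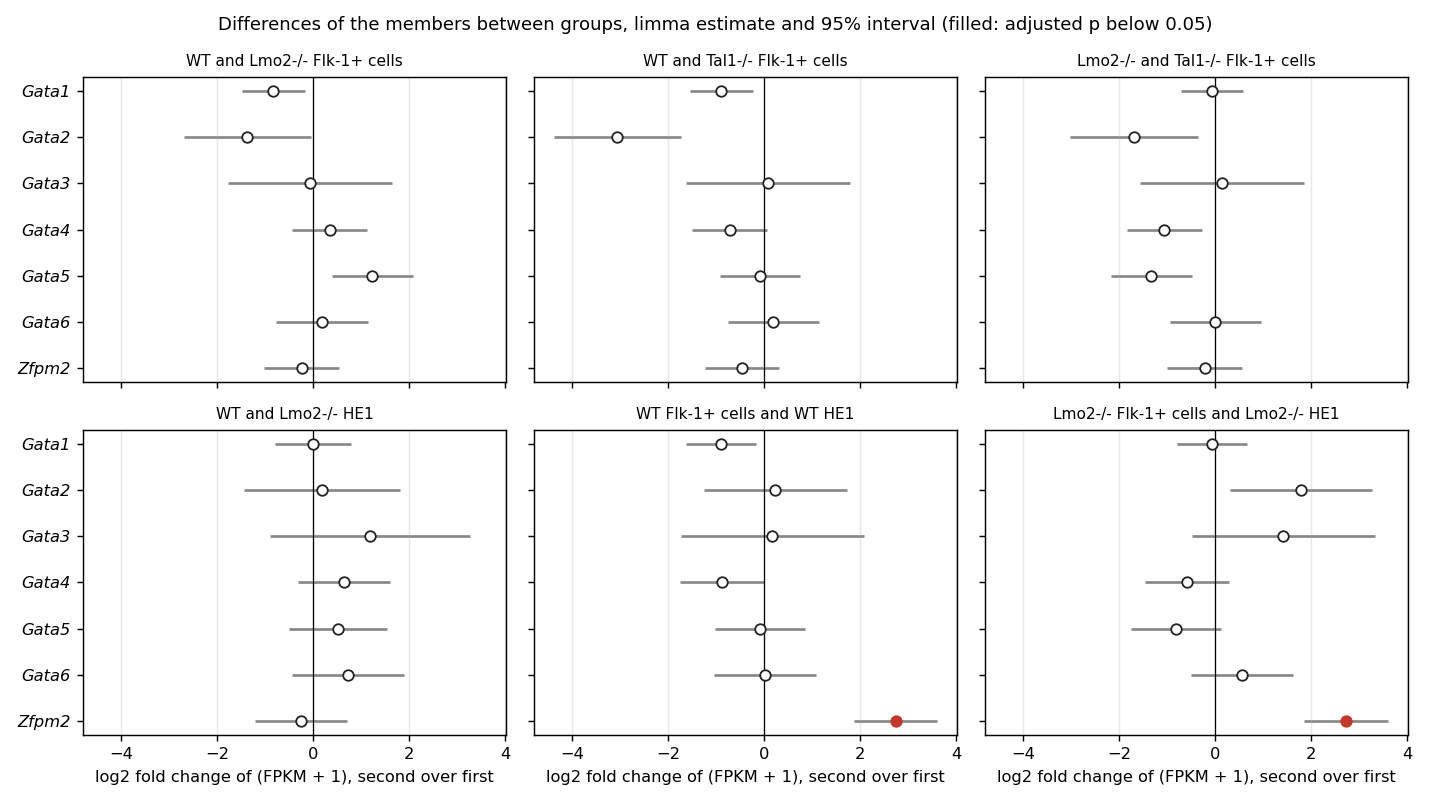
The panels are the 6 pairwise comparisons and plot, for each member, the limma log2 fold change of (FPKM + 1) of the second group over the first with its 95% interval; filled points have an adjusted p below 0.05. The filled points are those of Zfpm2 in both stage comparisons, and the longest distance below 0 is that of Gata2 from WT to Tal1-/- Flk-1+ cells.

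Gata2 is needed for blood stem and progenitor cells and is the GATA partner of TAL1 and LMO2 before red cells form. Its gene (XLOC_031581) covers 13.1 kb on the plus strand of chromosome 6 (GRCm38, GENCODE annotation), positions 88193891 to 88207032. In WT Flk-1+ cells Gata2 was 31.4, 12.6 and 6.93 FPKM in replicates 0, 1 and 2. In Lmo2-/- Flk-1+ cells it was 3.44, 9.78 and 3.24 FPKM, and in Tal1-/- Flk-1+ cells 0.501, 1.05 and 0.997 FPKM. Every Tal1-/- library was below every WT and every Lmo2-/- library, whereas Lmo2-/- replicate 1 lay inside the WT range. The mean was 17.0 ± 12.8 FPKM in WT, 5.49 ± 3.72 in Lmo2-/- and 0.849 ± 0.302 in Tal1-/- Flk-1+ cells (SD, n = 3 each).

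From WT to Tal1-/- Flk-1+ cells the limma estimate for Gata2 was -3.05 ± 0.62 on the log2 scale (SE), and the WT mean FPKM was 20.02 times the Tal1-/- mean. The limma adjusted p was 0.163 for this difference, and it ran from 0.0582 to 0.497 over the alternatives. With other pseudocounts the estimate ran from -3.95 to -1.75, and the ratio of means rests on Tal1-/- values near or below 1 FPKM. From Lmo2-/- to Tal1-/- Flk-1+ cells the estimate was -1.68 ± 0.62 log2 units (SE, limma adjusted p = 0.747). The exact permutation test, two-sided, gave p = 0.10 for both, the smallest that 3 against 3 libraries allow. Libraries that did not overlap were seen for 3 of 7 members from WT to Tal1-/- Flk-1+ cells, all lower (Gata1, Gata2 and Zfpm2), beside 7.4% of all tested genes lower and 12.6% in either direction. In the same Tal1-/- libraries Tal1 was 2.74 to 3.41 FPKM, against 22.0 to 37.4 FPKM in WT.

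In HE1 Gata2 was 31.0 and 8.95 FPKM in the libraries labelled WT and 12.0 and 30.8 FPKM in those labelled Lmo2-/-. The HE1 genotypes overlapped, and so did the WT stages. Between the Lmo2-/- stages every HE1 library lay above every Flk-1+ library, with an estimate of 1.79 ± 0.69 log2 units (SE, limma adjusted p = 0.0725). Gata2 and Zfpm2 were the 2 of 7 members that did not overlap there, both higher in HE1, beside 31.9% of all tested genes higher and 47% in either direction. Without Lmo2-/- Flk-1+ replicate 1, whose Gata2 was highest of its group, the Gata2 difference was 2.23 (adjusted p = 0.0481), and without Lmo2-/- HE1 replicate 0 it was 2.44 (adjusted p = 0.0352). Without Lmo2-/- HE1 replicate 1, the library that stood apart, it was 1.15 (adjusted p = 0.382). In both of these last fits the HE1 arm was a single library, assumed to vary like the others, and the value of 2.44 rests on the library that stood apart. With libraries rescaled to a common median it was 0.87, and the median gene was then at -0.34. Over all tested genes the median was 0.30 on the log2 scale in this comparison, 0.11 in that of the WT stages and 0.15 in that of the HE1 genotypes, so that stage and HE1 differences are to be read against these shifts. The change of Gata2 between stages did not differ detectably between the genotypes, with an interaction of 1.56 ± 0.97 log2 units (SE, limma adjusted p = 0.529, 95% interval -0.54 to 3.66). The interaction called 0 of 7 members and 0.348% of all tested genes, and 0 members had an unadjusted p below 0.05 beside 12.1% of all genes. The count of 48 genes behind that share was 1150 without Lmo2-/- HE1 replicate 0 and 0 without WT HE1 replicate 0.

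The composite E-box and GATA element that the TAL1 and LMO2 complex is known to bind was searched for in the 7 genes, since GATA2 is a partner in that complex. The letters searched were CATCTG, an E-box, then any 8 bases and then AGATAA, on both strands of the reference genome (GRCm38.p6). This is a single form of an element known from earlier sites, which may include sites in these genes. A match is therefore a description and no test. There were 799 matches on chromosomes 1 to 19, X and Y, 0.302 per megabase. The Gata2 gene held 1 match, 9294 bases past its start, in intron 4 of the 2 transcripts that span it. The Zfpm2 gene, which is 450 kb long, also held 1 match, in intron 5 of the 2 transcripts that span it. The match in Gata2 lies at chr6:88203185-88203204 and that in Zfpm2 at chr15:41019748-41019767. The 80 bases around each are shown because these are the places in the family where both words stand together, with both words in capitals, plus strand, from chr6:88203155-88203234 and chr15:41019718-41019797.
Gata2: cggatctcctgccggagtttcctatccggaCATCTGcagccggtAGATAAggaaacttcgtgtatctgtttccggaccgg
Zfpm2: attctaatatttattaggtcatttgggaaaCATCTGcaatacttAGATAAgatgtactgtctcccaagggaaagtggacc
A match is a run of letters and no measure of binding. The forward primer of the study's ChIP assay at a Gata2 intronic enhancer lies within the Gata2 window shown. With that assay the study measured LMO2, TAL1, LDB1 and GATA2 by qPCR, and those values were not analysed here. The other 5 genes held 0 matches, which says only that these letters are absent there. The 250 bases before the RefSeq starts of Gata1, Gata2 (2 starts), Gata3 and Gata5 held 0 matches to any of 4 GATA words, which were AGATAA, the variant AGATAG, the variant TGATAA and the variant TGATAG, and 0 to the E-box word CAGATG, counted on both strands. Of 32851 such windows in the RefSeq table, 26.5% held a GATA word and 14.4% the E-box word.

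Gata1, the regulator of red cell and platelet precursor genes, was low throughout. Its gene (XLOC_042508) lies on the minus strand of chromosome X from 7959260 to 7978071. It was 1.29, 1.26 and 0.222 FPKM in WT Flk-1+ cells. In Lmo2-/- Flk-1+ cells it was 0.129 FPKM in replicate 2 and listed at 0 in the other 2 libraries, and it was listed at 0 in all Tal1-/- Flk-1+ and all HE1 libraries. All WT Flk-1+ libraries were thus above all others. On the log2(FPKM + 1) scale Lmo2-/- less WT Flk-1+ cells gave -0.83 ± 0.30 log2 units (SE, limma adjusted p = 1). Tal1-/- less WT gave -0.89 (adjusted p = 0.634), and WT HE1 less WT Flk-1+ cells also gave -0.89 (adjusted p = 0.124). At these levels the size of the fold change depends on the pseudocount, and against WT HE1 it ran from -3.08 to -0.24. Without a filter on low values that last comparison passed the adjustment (adjusted p = 0.0429). The red cell markers Hba-x and Hbb-y were listed at 0 in every library.

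Gata3, which directs T cells and also acts in trophoblast and sympathetic neurons, varied more within groups than between them. Its gene (XLOC_020241) lies on the minus strand of chromosome 2 from 9857078 to 9890034, and its row also holds the overlapping transcript 9230102O04Rik, so that reads of both are counted together. It was 24.9, 6.40 and 7.61 FPKM in WT, 4.39, 24.9 and 9.36 in Lmo2-/- and 8.57, 41.9 and 3.79 in Tal1-/- Flk-1+ cells. A single library was high in each of these groups, and the group ranges overlapped throughout. The 95% intervals of the log2 differences in Flk-1+ cells reached from -1.76 to 1.85, so that changes of this size in either direction are not shut out. In HE1 Gata3 was 16.8 and 8.99 FPKM in the libraries labelled WT and 18.8 and 45.3 FPKM in those labelled Lmo2-/-. These did not overlap and differed by 1.18 ± 0.97 log2 units (SE, limma adjusted p = 0.515), with an exact two-sided permutation p of 0.333, the smallest for 2 against 2. Without Lmo2-/- HE1 replicate 1, the library that stood apart, it was 0.57. Gata3 and Gata4 were the 2 of 7 members whose HE1 libraries did not overlap, both higher in Lmo2-/-, beside 25.9% of all tested genes higher and 39.7% in either direction.

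The level of Gata2 relative to Gata3, a pair chosen after the values were seen, separated the Tal1-/- libraries from the rest. The ratio of their FPKM was 0.911 to 1.97 in WT, 0.346 to 0.783 in Lmo2-/- and 0.02498 to 0.263 in Tal1-/- Flk-1+ cells, ranges that do not overlap. In HE1 it was 0.996 and 1.85 in WT and 0.639 and 0.680 in Lmo2-/-. Gata2 was above Gata3 in 3 of 13 libraries, of which 2 were WT Flk-1+ and 1 was WT HE1. As a ratio within a library it shows unequal levels, not which gene moved.

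Gata4 is required for heart formation and for the visceral endoderm. Its gene (XLOC_012261) lies on the minus strand of chromosome 14 from 63198922 to 63271692. It was 109.75, 69.3 and 49.6 FPKM in WT, 68.3, 114 and 99.8 in Lmo2-/- and 66.2, 37.2 and 34.01 in Tal1-/- Flk-1+ cells. Every Tal1-/- library was below every Lmo2-/- library, while both overlapped WT. The mean was 94.2 ± 23.6 FPKM in Lmo2-/- and 45.8 ± 17.7 FPKM in Tal1-/- (SD, n = 3 each), and the estimate was -1.06 ± 0.36 log2 units (SE, limma adjusted p = 0.712, exact two-sided permutation p = 0.10). Gata2, Gata4 and Gata5 were the 3 of 7 members that did not overlap between these groups, all lower in Tal1-/-, beside 6.66% of all tested genes lower and 13.3% in either direction.

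In HE1 Gata4 was 37.8 and 40.3 FPKM in the libraries labelled WT, below all WT Flk-1+ libraries. Between the WT stages the estimate was -0.87 ± 0.41 log2 units (SE, limma adjusted p = 0.209) while the median gene moved by 0.11. Of the 7 members 3 did not overlap between the WT stages (Gata1 and Gata4 lower, Zfpm2 higher), beside 44.9% of all tested genes. In the libraries labelled Lmo2-/- HE1 Gata4 was 71.9 and 52.0 FPKM, above WT HE1 by 0.63 ± 0.44 log2 units (SE, limma adjusted p = 0.442), which was 0.09 after quantile normalization. Between the Lmo2-/- stages it differed by -0.58 with overlapping libraries, against a median gene at 0.30. After quantile normalization this difference was -1.60 (adjusted p = 0.0220), and after rescaling to a common median it was -1.58 (adjusted p = 0.0216).

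Gata6, which acts in extraembryonic endoderm and in the heart, had the smallest spread over the Flk-1+ libraries among the members above 1 FPKM. Its gene (XLOC_016533) lies on the plus strand of chromosome 18 from 11052064 to 11085635. It was 23.1, 12.8 and 12.96 FPKM in WT, 18.4, 21.0 and 15.01 in Lmo2-/- and 21.1, 15.7 and 17.8 in Tal1-/- Flk-1+ cells, and 19.2 and 13.2 FPKM in WT HE1. The 95% intervals of its 3 log2 differences between Flk-1+ groups lay within -0.94 and 1.15. In Lmo2-/- HE1 it was 53.0 FPKM in replicate 0 and 13.5 FPKM in replicate 1, a spread of 3.93-fold. Without replicate 1, the library that stood apart, the log2 fold change of Gata6 between the Lmo2-/- stages was 1.51. In that fit the single remaining HE1 library was assumed to vary like the others. Replicate 1 lay below every Lmo2-/- Flk-1+ library, so that any rise rests on replicate 0 alone. With both libraries the difference was 0.56 (limma adjusted p = 0.422).

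Gata5, a heart and gut endoderm factor, was low in all libraries. Its gene (XLOC_021914) lies on the minus strand of chromosome 2 from 180325133 to 180334699, and the antisense gene Gata5os, which overlaps it, was listed at 0 in all libraries. In Lmo2-/- Flk-1+ cells Gata5 was 0.413, 2.14 and 2.53 FPKM, above all WT libraries, which had 0, 0.133 and 0.0624 FPKM. It was listed at 0 in all Tal1-/- Flk-1+ and WT HE1 libraries, and it was 1.04 and 0 FPKM in Lmo2-/- HE1. On the log2(FPKM + 1) scale Lmo2-/- was above WT Flk-1+ cells by 1.23 ± 0.39 log2 units (SE, limma adjusted p = 1), and it ran from 0.39 to 3.21 with other pseudocounts. From Lmo2-/- to Tal1-/- Flk-1+ cells it was -1.32 (adjusted p = 0.561). Between WT and Lmo2-/- Flk-1+ cells 2 of 7 members did not overlap, Gata5 higher and Gata1 lower in Lmo2-/-, beside 8.21% of all tested genes. The cardiomyocyte markers Tnnt2, Actc1, Myl7, Myh6 and Nkx2-5 summed to 12.2 to 15.7 FPKM in WT, 15.7 to 25.7 in Lmo2-/- and 8.29 to 17.0 in Tal1-/- Flk-1+ cells. Their part in the Gata5 values was not tested.

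Zfpm2, the Friend of GATA that pairs with GATA4 in the heart and its vessels, was the 1 member that passed an adjusted p below 0.05 in any comparison. Its gene (XLOC_012629) lies on the plus strand of chromosome 15 from 40655035 to 41104592. It was 10.3 and 6.44 FPKM in WT HE1 and 5.48 and 8.17 FPKM in Lmo2-/- HE1. In Flk-1+ cells it was 0.657, 0.144 and 0.365 FPKM in WT and 0.223, 0 and 0.282 FPKM in Lmo2-/-, and it was listed at 0 in all 3 Tal1-/- libraries. Each HE1 library was above all 9 Flk-1+ libraries. Zfpm2 passed the adjusted p but had a mean below 10 FPKM, and therefore was not called.

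Its limma estimate between the WT stages was 2.74 ± 0.40 log2 units (SE, limma adjusted p = 0.000894), and the HE1 mean FPKM was 21.5 times the Flk-1+ mean. Between the Lmo2-/- stages it was 2.73 ± 0.40 log2 units (SE, limma adjusted p = 0.000607), where the means were 6.83 and 0.168 FPKM. Adjusted p alone was passed by 1 of 7 members in each comparison, beside 9.74% and 25.5% of all tested genes. It was passed in 25 of 25 settings for both, which include the main fit and reuse the same libraries. The fold change ran from 1.30 to 4.22 in WT and from 1.19 to 4.88 in Lmo2-/- with the pseudocount. Zfpm2 passed the filter on low values only through the HE1 libraries, where it was high. The settings are therefore no independent support for the difference. The interaction of genotype and stage was -0.01 ± 0.57 log2 units (SE, limma adjusted p = 0.996, 95% interval -1.24 to 1.22). In HE1 the genotypes overlapped. The endothelial markers moved between the same stages, as did 2 of the 4 smooth muscle markers, Acta2 (at most 0.976 FPKM in Flk-1+ cells and at least 114 in HE1) and Tagln (at most 7.52 and at least 24.1 FPKM). Myh11 was at most 0.617 FPKM in any library, and the mean of Cnn1 was lower in HE1, at 1.20 and 0.138 FPKM in the WT stages and 1.67 and 0.427 FPKM in the Lmo2-/- stages. Their part in the Zfpm2 difference was not tested.

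The blood and cardiac members were set side by side as summed FPKM in each library, as a description with no test. The sum of Gata4, Gata5 and Gata6 was above that of Gata1, Gata2 and Gata3 in 12 of 13 libraries. The exception was Lmo2-/- HE1 replicate 1, the library that stood apart, at 65.5 against 76.1 FPKM. The ratio of the cardiac to the blood sum was 2.31 to 4.25 in WT, 3.97 to 11.1 in Lmo2-/- and 1.23 to 10.8 in Tal1-/- Flk-1+ cells. It was 1.19 and 2.98 in WT HE1 and 4.08 and 0.860 in Lmo2-/- HE1. The groups overlapped in this ratio, and in Tal1-/- the low value came from the replicate with Gata3 at 41.9 FPKM. As a difference of mean log2(FPKM + 1) between both sets of 3 genes, WT (0.16 to 1.06) and Lmo2-/- Flk-1+ libraries (1.61 to 2.28) did not overlap, and Tal1-/- (0.95 to 2.23) overlapped both. This measure weights all genes of a set equally. It thus includes the low Gata1 and Gata5, which themselves did not overlap between WT and Lmo2-/- Flk-1+ cells. From WT to Lmo2-/- they differed by -0.83 and 1.23 log2 units. The others differed by -1.37 (Gata2), -0.06 (Gata3), 0.34 (Gata4) and 0.19 (Gata6). Gata1 and Gata5 passed the filter only through the groups in which they were high, so this separation is no support for a difference. Gata4 made up 57.1% to 85.1% of the cardiac sum.

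**Figure D3:**
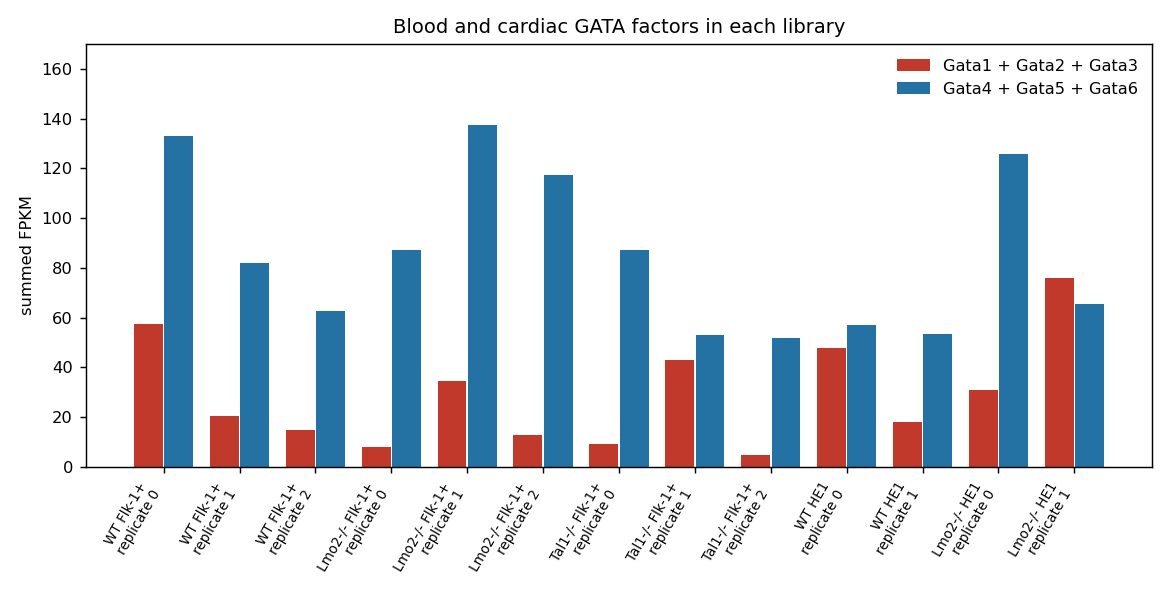
Bars give the summed FPKM of Gata1 to Gata3 and of Gata4 to Gata6 in each of the 13 libraries, from 0. The cardiac sum is higher in 12 of them and the blood sum is higher in Lmo2-/- HE1 replicate 1.

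Among all 7282 tested genes with a mean FPKM above 10 in a group, those whose log2(FPKM + 1) followed each member most closely over the 13 libraries were listed by Pearson r. These points share libraries and groups, and r is given as a description. For Gata2 the closest gene was Tal1 (r = 0.94), which is itself the deleted gene in 3 of these libraries, followed by Dusp4 (0.88) and A930005H10Rik (0.88). Within Lmo2-/- Flk-1+ cells the library with the highest Gata2 (9.78 FPKM) also had the highest Tal1, at 29.0 FPKM against 6.51 and 6.64 FPKM. For Zfpm2 the closest genes were Cd34, a surface protein of endothelium and blood progenitors (r = 0.99), Tgfbr2, a TGF-beta receptor (0.99), and the endothelial receptor gene Tie1 (0.99). For Gata3 they were Tnfrsf1a (0.96), the joint row of Adat3 and Scamp4 (0.90) and Ergic1 (0.87), and for Gata4 the closest were Ranbp3 (0.82) and Rai1 (0.78). Gata6 was followed by Ss18 (0.84), Cdca4 (0.82) and Wdr19 (0.81). Gata1 (Gm25394, Glul and Nolc1, 0.81 to 0.96) and Gata5 (Map2k6, Ccng2 and Prpf40b, 0.68 to 0.75) were at 0 in many libraries. Between members the highest r were 0.67 for Gata4 and Gata5 and 0.66 for Gata2 and Zfpm2.

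**Figure D4:**
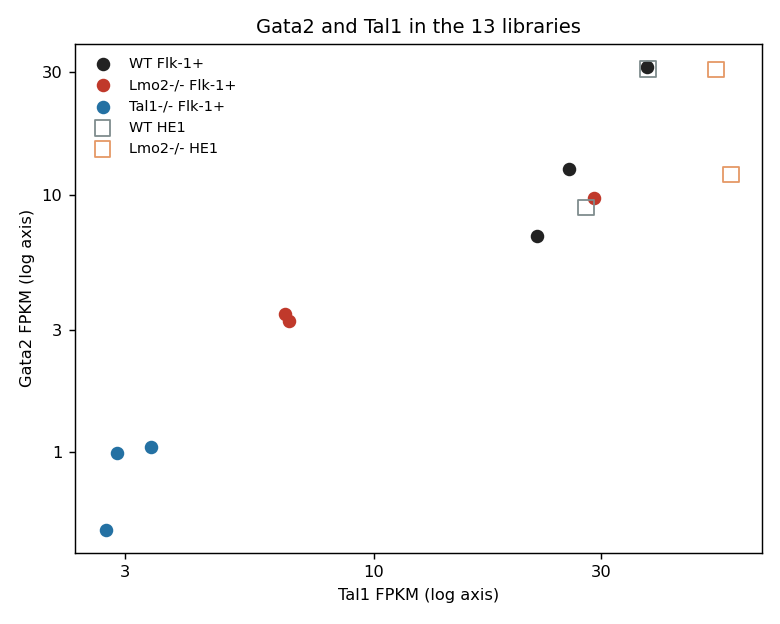
Gata2 FPKM is plotted against Tal1 FPKM, both on log axes, with filled circles for the Flk-1+ libraries and open squares for HE1. The Tal1-/- libraries lie at the lower left, 2 Lmo2-/- Flk-1+ libraries lie between, and the third lies among the WT libraries.

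Genes that work with the members were counted in the same fit. Of 17 partners of GATA2 in the LMO2 complex and in blood formation 15 were tested, and 0 were called between any Flk-1+ groups by limma. Unadjusted p-values below 0.05 numbered 6 in the comparison of WT with Lmo2-/-, 7 with Tal1-/- and 3 between both deletions, beside 2.22%, 6.11% and 5.96% of all tested genes. The list's median log2 fold change was -0.86 for Lmo2-/- against WT and -0.96 for Tal1-/- against WT, while that of all tested genes was -0.01 in both. The list includes Lmo2 and Tal1, the deleted genes, whose low values in their own deletion lines are set by the design. These counts and medians are therefore not independent of the deletions. Between the WT stages 3 were called, all higher in HE1 (Erg, Fli1 and Tcf4), beside 6.98% of all tested genes. Between the Lmo2-/- stages these 3 and Tal1 were called, all higher in HE1, beside 19.6% of all tested genes. The ETS factor gene Fli1 was 11.7 ± 2.21 FPKM in WT and 1.02 ± 0.155 FPKM in Lmo2-/- Flk-1+ cells (SD, n = 3 each), and it rose between the Lmo2-/- stages by 4.42 ± 0.40 log2 units (SE, limma adjusted p = 2.56e-05). Of 18 red cell and megakaryocyte genes 4 passed the filter on low values, and 0 were called in any comparison. At an unadjusted p below 0.05 in limma there were 2 of 4 between the HE1 genotypes, beside 20.7% of all tested genes. There was 1 from WT to Tal1-/- Flk-1+ cells, beside 6.11%, and 0 in the other comparisons.

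Of 17 cardiac partners and targets of GATA4 to GATA6, 13 were tested. In Flk-1+ cells 0 were called, and 3, 2 and 6 had an unadjusted p below 0.05 for Lmo2-/- against WT, Tal1-/- against WT and Tal1-/- against Lmo2-/-, beside the same 2.22%, 6.11% and 5.96% of all tested genes. The list median was 0.90, -0.49 and -0.94 in these comparisons, beside -0.01, -0.01 and 0.00 for all tested genes. From WT to Lmo2-/- HE1 2 of 13 were called, beside 3.01% of all tested genes, and both were higher: the mesoderm factor genes Hand1 (log2 fold change 4.20 ± 0.69 SE, limma adjusted p = 0.00524) and Tbx20 (2.39 ± 0.40 SE, adjusted p = 0.00678). Between the WT stages 2 of 13 were called, beside 6.98% of all tested genes. Hand1 fell by 3.25 on the log2 scale (limma adjusted p = 0.00543) and Mef2c rose by 2.94 (adjusted p = 0.0168). Between the Lmo2-/- stages 2 of 13 were also called, a share below that of all genes, as the muscle gene Myl7 fell by 2.92 (adjusted p = 0.00676) and Tbx20 rose by 1.66 (adjusted p = 0.00601). The summed fibroblast markers and Acta2 were higher in the same Lmo2-/- HE1 libraries, and their part was not tested.

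Of 14 endoderm genes 7 were tested. Between the WT stages Sox7, Dab2 and Sox17 were called higher in HE1, and between the Lmo2-/- stages Sox7 and Dab2. Sox7 and Sox17 are also expressed in endothelium, and the counts of 3 and 2 of 7 stand beside 6.98% and 19.6% of all tested genes. Of the endoderm markers Apoa1, Ttr and Hnf4a were listed at 0 in all HE1 libraries, while Foxa2 reached 0.211 FPKM in WT HE1 and 2.66 FPKM in Lmo2-/- HE1 and Afp reached 0.848 FPKM in Lmo2-/- HE1. Of 12 endothelial genes 8 were called higher in HE1 in WT and 5 in Lmo2-/-, led in both by Cdh5, Tek, Pecam1 and Tie1. Nos3 was the 1 endothelial gene called between HE1 genotypes, lower in Lmo2-/- (log2 fold change -2.12, limma adjusted p = 0.0218). All 14 corepressor genes that the Zfpm factors recruit were tested, and Mbd2 and Gatad2a were called, both higher in HE1 between the Lmo2-/- stages, where 19.6% of all tested genes were called, so that 2 of 14 does not exceed the background. Of 9 other genes with a GATA-type zinc finger 2 were called in the same comparison, Trps1 (log2 fold change 2.49, limma adjusted p = 0.00283) and again Gatad2a (1.38, adjusted p = 0.0367), a share near that of all genes. The median gene rose by 0.30 in that comparison.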

How the data were processed

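The authors aligned the RNAseq reads to GRCm38 with TopHat 2.0.9, assembled transcripts with Cufflinks 2.0.0, merged them with Cuffmerge and compared conditions with Cuffdiff 2.0.1. They deposited FPKM for each library from Cuffnorm, used for all values here unless named otherwise, and FPKM for each condition from Cuffdiff. A further deposited table holds the fold changes and p-values of the authors' own comparisons and was not used. The libraries were made with a stranded kit, and the strand setting of the counting is not given in the sources used here. Fragment counts are not in these tables. The study states a minimum number of reads common to all libraries, and the depth of each library and the fragments behind each value are unknown. Of the per-library columns 0 were left unused. ChIP and DNase data were not analysed here, and 1 gene that the naming rule selects is not reported here.

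Rows with a locus over 200 bp (42236 of 45250) that reached 1 FPKM in 2 or more libraries were tested. The group means of log2(FPKM + 1) were compared with limma 3.58.1 (R 4.3.3), whose prior variance followed the mean expression. The fit was tested on simulated data. Other steps used Python 3.11.15 with scipy 1.17.1, pandas 2.3.3, numpy 2.4.6 and, for figures, matplotlib 3.10.9. Positions are from GENCODE M21 and sequences from the RefSeq copy of GRCm38.p6.

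The members and the gene lists were chosen with earlier results of these data known. Levels are given for all members. Fold changes are given for those whose libraries did not overlap or where an alternative, an interval or a measure over several members is discussed. From each list at most the 4 called genes with the largest fold change are named, and Fli1 levels were added after its values were seen. Replicates are numbered as in the headers of the per-library table. Deviations from the group means did not go together in WT and Lmo2-/- Flk-1+ libraries of equal number (r = -0.18, -0.18 and -0.01). Some of unequal number did. For WT replicate 0 with Lmo2-/- replicate 1 r was 0.34, for WT replicate 1 with Lmo2-/- replicate 2 it was 0.31, and for WT replicate 2 with Lmo2-/- replicate 0 it was 0.30. The remaining combinations were below 0. What these libraries share is unknown and was not modelled. In WT and Tal1-/- Flk-1+ libraries of equal number r was 0.17, 0.07 and 0.11, and in those of unequal number it ran from -0.11 to 0.03. A weak pairing there is not shut out. The main fit did not take the numbers as pairs, and the replicate block among the alternatives did. Alternatives were 2 other pseudocounts, 2 other filters, no FPKM criterion, 2 other scalings, separate fits, no trend, array weights, a replicate block and each library left out.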

Additional observations from a re-analysis of the deposited data

How the results depend on the processing

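Among the member differences with libraries that did not overlap, no fold change reversed its direction under the alternatives. Other member differences were not checked for direction. For Gata6 the Lmo2-/- HE1 libraries lay on opposite sides of the Lmo2-/- Flk-1+ libraries. The count of members called stayed at 0 in all Flk-1+ comparisons, between the HE1 genotypes and for the interaction. Between the WT stages it was 1 instead of 0 with no FPKM criterion (Zfpm2) and 0 to 1 with each library left out, with 1 (Zfpm2) without WT HE1 replicate 1. Between the Lmo2-/- stages it was 1 with no FPKM criterion (Zfpm2), 1 after quantile normalization and 1 after rescaling to a common median (Gata4 in both). With each library left out it was 0 to 1 there, with 1 without Lmo2-/- Flk-1+ replicate 1 or Lmo2-/- HE1 replicate 0 (Gata2) and without Lmo2-/- HE1 replicate 1 (Gata6). The FPKM criterion and the left-out libraries act by construction, and for the scalings the cause was not tested. With the library number as a replicate block 0 members were called in every comparison, and it changed no other call of a member. The log2 ratio of the cardiac to the blood sum was 1.77 in WT and 2.89 in Lmo2-/- Flk-1+ cells. As a difference of mean log2(FPKM + 1) it was 0.66 and 1.998, with no overlap of the libraries on that second measure. It includes Gata1 and Gata5, which passed the filter only through groups in which they were high. The separation is therefore no support for a difference. Calls over all genes moved more: from 415 to 0 between the HE1 genotypes with only the groups compared in the fit and to 2177 without Lmo2-/- HE1 replicate 0, from 964 to between 323 and 1682 for the WT stages, from 2707 to between 976 and 3836 for the Lmo2-/- stages, and from 48 to between 0 (without WT HE1 replicate 0) and 1150 (without Lmo2-/- HE1 replicate 0) for the interaction, with 5 under array weights.

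With no fragment counts, values below 1 FPKM carry no known precision. This limits Gata1, Gata5 and Zfpm2 in Flk-1+ cells and Gata2 in Tal1-/- Flk-1+ cells. The size of their fold changes moved with the pseudocount, and each HE1 group had 2 libraries.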

Other observations

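The authors also deposited 1 pooled FPKM value per condition from Cuffdiff, normalized separately from the library values, so that levels cannot be compared between the tables. In the authors' pooled values Gata2 was 12.6 in WT, 3.59 in Lmo2-/- and 0.906 in Tal1-/- Flk-1+ cells, and 14.9 in WT and 9.26 in Lmo2-/- HE1. The order of the Flk-1+ groups was that of the library means. In HE1 the order was the other way round, since the library means of Gata2 were 19.96 FPKM in WT and 21.4 FPKM in Lmo2-/-. Gata4 was 35.0 in WT HE1 and 37.0 in Lmo2-/- HE1 in the pooled values, where the library means were 39.1 and 62.0 FPKM. Gata3 kept its order between the HE1 genotypes, at 8.07 and 17.2 in the pooled values and 12.9 and 32.1 FPKM in the library means. Both values for Lmo2-/- HE1 include the library with 9694 genes above 0, and its part in these differences was not tested.

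A noncoding neighbour of Gata6, 1010001N08Rik, was 1.02 to 5.15 FPKM in Lmo2-/- Flk-1+ cells and at most 4.65 FPKM in the other Flk-1+ libraries. In HE1 it was 0.591 FPKM in WT replicate 0 and listed at 0 in WT replicate 1 and both Lmo2-/- libraries.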
